A study of Mus musculus with 2 samples.

Results

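The chemokine receptors described here are Ccr1, Ccr2, Ccr7, Cxcr2, Cxcr3, Cxcr4, Cxcr5, Cxcr6 and Cx3cr1. They were taken by gene symbol, and all 9 were found among the 31054 gene rows of both count matrices. The study sequenced single cells sorted as EGFP+ and tdTomato- from breast tumours of C57BL/6 inAd-Chaser-mTmG mice, with 1 library from a Met-1 xenograft tumour and 1 library from a PyMT breast tumour. The design text names EO771 cells for the implanted tumour where the sample label names Met-1, and the label is used here. The PyMT tumour is named in the tissue label, while the genotype label, the same for both samples, lists no PyMT transgene. Mice of both groups carried Adiponectin-rtTA, TRE-Cre and the Rosa26 mT/mG reporter, in which a doxycycline pulse switches cells that use the adiponectin promoter, and their descendants, from tdTomato to EGFP. The labels give no age and no number of animals. With 1 library per tumour no difference was tested, and every interval covers counting error only.

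Chemokine receptors are G protein-coupled receptors that steer leukocytes along gradients of small secreted proteins. Ccr1, Ccr2 and Cxcr2 bind inflammatory chemokines and are known for the recruitment of neutrophils and monocytes, and Cx3cr1 binds the membrane-anchored ligand Cx3cl1 on mononuclear phagocytes. Ccr7 and Cxcr5 guide lymphocytes to and within lymphoid tissue, Cxcr3 and Cxcr6 mark effector and tissue-lodged lymphocytes, and Cxcr4 binds Cxcl12 and is widely used for retention. In breast tumours these receptors are studied as routes by which leukocytes enter the tissue or leave it.

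Of the 9 genes, 5 lie on chromosome 9 in GRCm38, the build named for the files. Cxcr6, Ccr1 and Ccr2 stand within 307 kb of each other there, and among Met-1 classes the highest levels were those of T cells for Cxcr6, neutrophils for Ccr1 and monocytes for Ccr2, although the cells that carried them overlapped in part. Cxcr6 lies on the plus strand inside Fyco1, a gene on the minus strand, and no annotated exons of the 2 genes overlap. Cxcr5 overlaps an end of Bcl9l, and the long annotated span of Cx3cr1 overlaps 9 other genes. Whether the counting used strand was not given in the sources used here.

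The sequences upstream of the 3 receptors that neutrophils of both tumours shared, and of Cxcr6 as the lymphocyte gene that neighbours Ccr1, are printed to show what precedes genes of these differing patterns. They run 5′ to 3′ up to the base before the first annotated exon, except for Cxcr4. That sequence stops at base 128592300, a few bases short of the annotated gene, which begins at 128592293 on the minus strand. All come from RefSeq on GRCm38.p6, in which 7 of the 9 receptors were matched. Ccr7 and Cxcr5 were not matched. Capitals mark every match, on either strand, to GGAAGT (a core of ETS family sites), TGTGGT (a core of RUNX sites) or AGGTGT (a core of T-box sites).
Ccr1 (chr9:123968693-123968942, minus strand): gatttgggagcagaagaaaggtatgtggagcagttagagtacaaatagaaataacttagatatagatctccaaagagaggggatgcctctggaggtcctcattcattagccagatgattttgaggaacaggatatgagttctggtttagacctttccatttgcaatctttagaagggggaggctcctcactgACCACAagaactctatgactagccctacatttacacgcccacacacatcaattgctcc
Cxcr2 (chr1:74153744-74153988, plus strand): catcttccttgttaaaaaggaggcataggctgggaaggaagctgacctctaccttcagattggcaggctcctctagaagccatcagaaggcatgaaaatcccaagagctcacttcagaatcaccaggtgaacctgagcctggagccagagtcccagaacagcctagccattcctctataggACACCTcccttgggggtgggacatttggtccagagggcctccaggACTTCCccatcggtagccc
Cxcr4 (chr1:128592300-128592549, minus strand): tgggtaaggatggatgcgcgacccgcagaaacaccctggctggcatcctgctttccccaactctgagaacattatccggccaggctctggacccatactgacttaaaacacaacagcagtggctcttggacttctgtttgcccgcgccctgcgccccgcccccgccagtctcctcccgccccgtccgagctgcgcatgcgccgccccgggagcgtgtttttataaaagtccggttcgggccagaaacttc
Cxcr6 (chr9:123806227-123806474, plus strand): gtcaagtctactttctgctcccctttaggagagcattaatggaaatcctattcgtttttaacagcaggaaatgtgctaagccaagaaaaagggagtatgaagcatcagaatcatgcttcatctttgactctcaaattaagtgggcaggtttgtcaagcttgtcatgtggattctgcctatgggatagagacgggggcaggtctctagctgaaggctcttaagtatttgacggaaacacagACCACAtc
No marked motif overlapped another. Ccr1 and Cxcr6 each held 1 match to TGTGGT, Cxcr2 held 1 match to GGAAGT and 1 to AGGTGT, and Cxcr4 held none. Among 32817 mouse promoters read over 250 bases, GGAAGT was present in 19.7%, TGTGGT in 14.0% and AGGTGT in 11.8%, so each match is a description of the window and not of a site in use.

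After filters, 2119 of 2451 barcodes (19908483 UMIs) were kept from the Met-1 tumour and 589 of 619 (4295404 UMIs) from the PyMT tumour, with medians of 7706 and 3470 UMIs per cell. No barcode was shared by the libraries. EGFP RNA was found in 96.3% and 80.3% of kept cells, whereas the adipocyte gene Adipoq had 5 UMIs in 1 Met-1 cell and 0 UMIs in PyMT. Cells were put in classes by marker genes, none of which is a receptor described here. The Met-1 library held 34 neutrophils, 29 monocytes, 694 macrophages, 160 NK cells, 326 T cells and 253 B cells. The PyMT library held 176 neutrophils, 7 monocytes, 161 macrophages, 2 NK cells, 44 T cells and 31 B cells. A level is given as CPM, the UMIs of a gene per 1000000 UMIs of all cells of a class. As UMI counts of different genes need not be caught equally well, levels are ordered across classes within a gene and not between genes.

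At least 1 of the 9 receptors had a UMI in 71.7% of kept Met-1 cells and 74.9% of kept PyMT cells. The background was read in fibroblast, mural and luminal cells, called non-haematopoietic cells here, in which the shares were 11.0% of 399 cells and 27.6% of 98 cells. Those cells had medians of 13045 and 14459 UMIs, deeper than any leukocyte class. After each cell was thinned to 1000 UMIs the background shares were 1.32% and 2.13%, against 89.7% of Met-1 and 79.1% of PyMT neutrophils and 70.3% and 67.7% of B cells. The thinned shares were lower in macrophages, at 56.0% and 35.6%, in T cells, at 37.5% and 38.6%, and in Met-1 NK cells, at 20%. A receptor was counted as above background where it had at least 3 UMIs and the lower 95% limit (Clopper-Pearson) of its thinned share exceeded the upper limit of the non-haematopoietic cells. In barcodes outside the classes, a receptor was counted where the lower Poisson limit of its CPM exceeded the upper limit in those cells. By that rule 8 of 9 receptors were above in Met-1 barcodes with over 10% mitochondrial UMIs, against 22.5% of all genes, and 3 of 9 in such PyMT barcodes, against 10.4%. In barcodes with both macrophage and B cell markers 7 of 9 were above in Met-1, against 22.9%, and 5 of 9 in PyMT, against 17.1%.

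**Figure D1:**
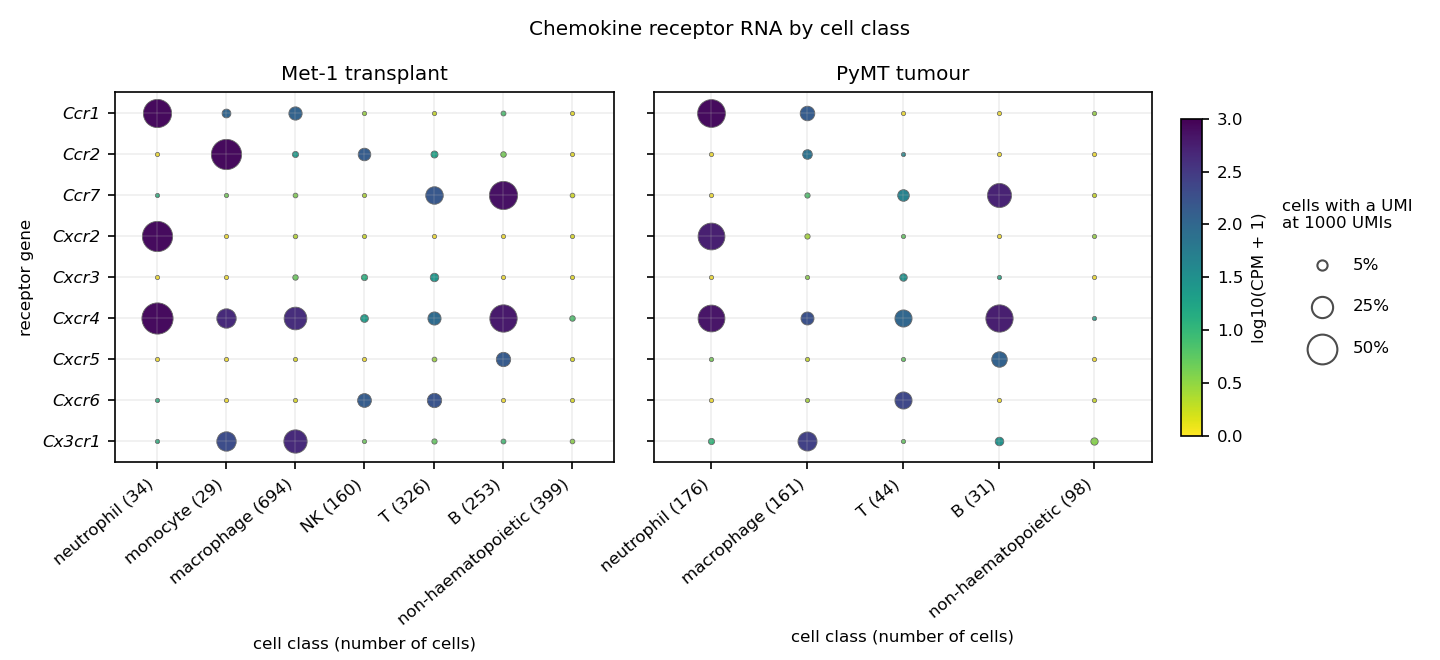
Receptor RNA by cell class in each library, for classes of at least 20 cells. Colour is log10(CPM + 1) and dot area grows with the share of cells with a UMI after thinning to 1000 UMIs. Ccr1, Cxcr2 and Cxcr4 share the neutrophil column in both tumours, Cx3cr1 is largest in macrophages, and Ccr7 and Cxcr5 are largest in B cells.

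Neutrophils carried Ccr1, Cxcr2 and Cxcr4 in both tumours and were at or near 0 for the other 6 receptors. These 3 of 9 receptors were above background in Met-1 neutrophils, where 14.0% of all genes with 3 or more UMIs passed the same rule, and the same 3 passed in PyMT neutrophils, where 8.16% of genes did. Ccr1, a receptor for Ccl3 and Ccl5 among others, was at 846 CPM (95% Poisson interval 662 to 1066) in Met-1 neutrophils and 822 (724 to 929) in PyMT neutrophils. Cxcr2, the main neutrophil receptor for Cxcl1 and Cxcl2, was at 811 CPM (631 to 1026) in Met-1 and 550 (470 to 639) in PyMT. Cxcr4, known to hold neutrophils in marrow through Cxcl12, was at 811 CPM (631 to 1026) in Met-1 and 683 (594 to 781) in PyMT. The intervals of the tumours overlapped for each of the 3, for Cxcr2 only from 631 to 639 CPM.

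Cxcr2 lay mostly in neutrophils. Of its 291 UMIs in kept cells, 82.1% were in neutrophils (76.7% of 90 in Met-1 and 84.6% of 201 in PyMT), and a further 12% were in barcodes that carried markers of more than 1 class. In macrophages it had 6 UMIs among 694 Met-1 cells and 2 among 161 PyMT cells. Neutrophil markers were likewise low in macrophages, with 7 of 8 detected at a sum of 142 CPM in Met-1, and 8 of 8 at 249 CPM in PyMT cells. Ccr2 had no UMI in 34 Met-1 neutrophils, which allows a share of up to 8.82% of cells with a UMI, or in 176 PyMT neutrophils, which allows up to 1.70%.

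Ccr1 had its next level in the other myeloid cells. It stood at 106 CPM (72.5 to 150) in Met-1 monocytes, 114 (106 to 123) in Met-1 macrophages and 135 (116 to 156) in PyMT macrophages. The intervals of Met-1 monocytes and macrophages overlapped, and both classes lay below neutrophils with no overlap. The monocyte level rests in part on 1 cell, which gave 15 of the 32 UMIs. After thinning, 1 of 29 monocytes had a Ccr1 UMI, and Ccr1 was not above background in that class. In NK, T and B cells of both libraries Ccr1 had between 0 and 6 UMIs per class.

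Ccr2 marked monocytes. This receptor for Ccl2, Ccl7 and Ccl12 is known for bringing monocytes out of marrow into inflamed tissue. It was at 838 CPM (738 to 947) in 29 Met-1 monocytes, 24 of which had a UMI, and at 745 CPM (495 to 1077) in the 7 PyMT monocytes. The next class was NK cells at 132 CPM (115 to 150) in Met-1, followed by macrophages at 23.0 (19.2 to 27.2) and T cells at 18.0 (13.4 to 23.7), whose intervals overlapped. In PyMT, macrophages were at 72.6 CPM (58.9 to 88.6) and T cells at 38.3 (17.5 to 72.7), which also overlapped. B cells had 3 Ccr2 UMIs in Met-1 and none in PyMT. Of the 891 Ccr2 UMIs in kept cells, monocytes held 31.5%, macrophages 25.8% and NK cells 24.1%. In PyMT alone, macrophages held 61.4% and monocytes 17.7%. Met-1 monocytes had 3 receptors above background, Ccr2, Cxcr4 and Cx3cr1, against 4.98% of genes.

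Macrophages had Ccr1, Cxcr4 and Cx3cr1 above background in both tumours, against 9.19% of genes in Met-1 and 3.35% in PyMT. Cx3cr1, the fractalkine receptor known for resident phagocytes and patrolling monocytes, was at 441 CPM (424 to 458) in Met-1 macrophages and 260 (233 to 289) in PyMT macrophages. Met-1 monocytes followed at 199 CPM (152 to 256). Every other leukocyte class with 20 cells lay at 29.4 CPM or less, the highest value being 2 UMIs in PyMT B cells. Macrophages held 81.5% of the 3559 Cx3cr1 UMIs in kept cells.

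The monocyte and macrophage classes were split at 10 UMIs of the complement genes C1qa, C1qb and C1qc per 10000 UMIs of a cell, and 5 of 726 Met-1 and 6 of 170 PyMT cells lay between 5 and 20. Ccr2 and Cx3cr1 were followed over finer ranges of the same measure. In Met-1, Ccr2 was at 786 CPM (694 to 887) under 10, 72 (55.9 to 91.3) from 10 to 100, 11.8 (8.57 to 15.9) from 100 to 200 and 18.1 (11.4 to 27.4) from 200. One cell gave 32 of the 68 UMIs in the second range. Cx3cr1 ran the other way, from 204 CPM (158 to 259) to 351 (314 to 390), 465 (443 to 488) and 439 (402 to 478). The monocyte marker Ly6c2 followed Ccr2, at 579 CPM under 10 and 0.551 CPM from 100 to 200.

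The PyMT ranges held 9, 14, 83 and 64 cells. Ccr2 was at 607 CPM (418 to 853), 136 (85.1 to 206), 74.9 (56.4 to 97.5) and 45.6 (27.8 to 70.4), and Cx3cr1 at 55.2 (11.4 to 161), 117 (70.6 to 183), 282 (245 to 323) and 276 (229 to 330). In the PyMT range under 10, the 3 Cx3cr1 UMIs came from 1 cell, and 1 cell gave 15 of the 33 Ccr2 UMIs. The order of the end ranges was the same in both tumours, but the low end in PyMT rests on few cells. Cxcr4 had no such order in either library: in Met-1 it was at 417, 424, 439 and 300 CPM, and in PyMT at 202, 160, 206 and 148 CPM. Ccr1 stayed between 109 and 138 CPM in Met-1 and between 109 and 239 CPM in PyMT.

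**Figure D2:**
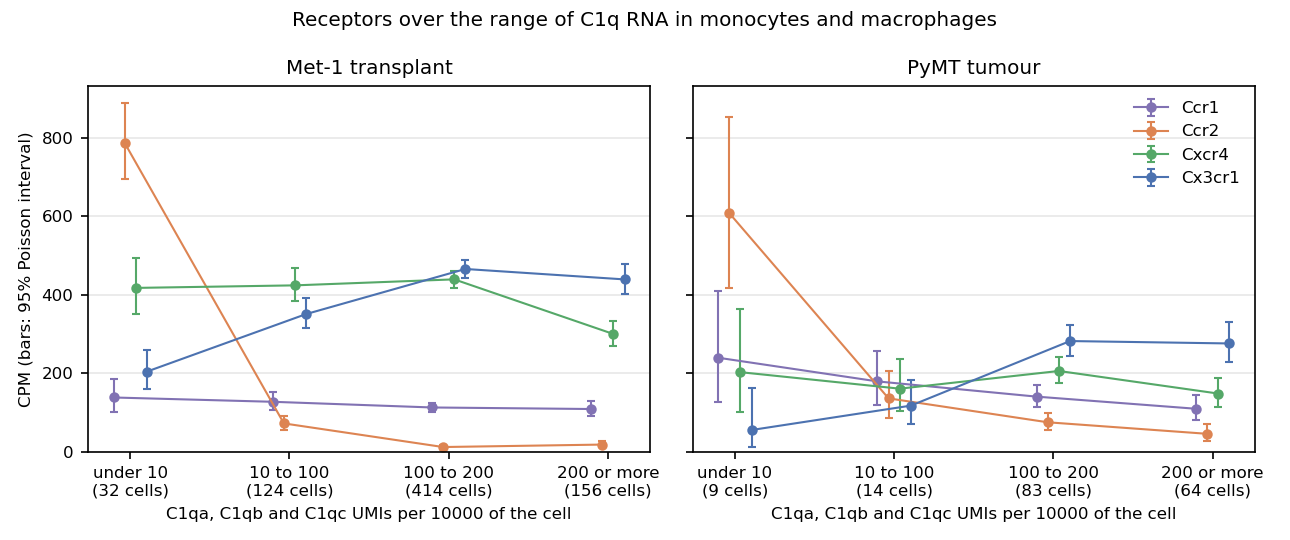
CPM of 4 receptors over ranges of C1q RNA per cell, in monocytes and macrophages of each library, with 95% Poisson intervals. Ccr2 is highest in the range under 10 (786 CPM in Met-1, 607 in PyMT) while Cx3cr1 is higher in the ranges from 100 upward.

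NK and T cells shared Cxcr6. This receptor for Cxcl16 is known from lymphocytes that lodge in tissue. It was at 133 CPM (116 to 152) in 160 Met-1 NK cells, 165 (151 to 181) in Met-1 T cells and 221 (165 to 290) in PyMT T cells. NK and T cells of Met-1 thus touched at the edge of their intervals and had no clear order. B cells had no Cxcr6 UMI, which allows up to 1.19% of 253 Met-1 cells, and neutrophils, monocytes and macrophages had between 0 and 2 UMIs per class. Of the 810 Cxcr6 UMIs in kept cells, T cells held 64.2% and NK cells 27.3%.

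Met-1 NK cells had 2 receptors above background, Ccr2 and Cxcr6, against 7.42% of genes. Their Ccr2 came from 68 of 160 cells and Cxcr6 from 62, and 27 cells had both. Cx3cr1, known from mature circulating NK cells, had only 6 UMIs in 5 of these cells. Ccr7 had 2 UMIs.

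Met-1 T cells had 4 receptors above background, Ccr7, Cxcr3, Cxcr4 and Cxcr6, against 7.55% of genes, and PyMT T cells had 2, Cxcr4 and Cxcr6, against 2.36%. Cxcr3, a receptor for Cxcl9 and Cxcl10, was thinly detected. It was at 25.4 CPM (19.9 to 32.0) in Met-1 T cells, 29.8 (12 to 61.4; 7 UMIs) in PyMT T cells and 11.6 (7.01 to 18.2) in Met-1 NK cells. In macrophages it was at 3.8 CPM (2.38 to 5.75) in Met-1 and 2.25 (0.463 to 6.56) in PyMT. The Met-1 order T, NK, macrophage had no overlapping neighbours, and T cells held 53.7% of its 147 UMIs.

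B cells had the highest Ccr7 in both tumours. Ccr7 binds Ccl19 and Ccl21 and is known for entry into lymph nodes. It was at 733 CPM (679 to 789) in Met-1 B cells, 514 (358 to 715) in PyMT B cells, 154 (139 to 169) in Met-1 T cells and 46.8 (23.4 to 83.8) in PyMT T cells. Within each library B cells lay above T cells with no overlap. NK cells, monocytes, neutrophils and macrophages lay at 11.8 CPM or less, each on 16 UMIs or fewer, leaving aside the 7 PyMT monocytes.

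Cxcr5, the receptor for Cxcl13 that is known for B cell follicles, was at 140 CPM (117 to 166) in Met-1 B cells and 117 (50.7 to 232; 8 UMIs) in PyMT B cells. It had at most 5 UMIs in each other class described, and 31.2% of its 221 UMIs lay in barcodes with markers of more than 1 class. Ccr7, Cxcr4 and Cxcr5 were the 3 receptors above background in Met-1 B cells, against 9.01% of genes. In PyMT B cells the 2 above background were Ccr7 and Cxcr4, against 4.79%, and Cxcr5, with 6 of 31 cells positive, did not pass. Its thinned share was 12.9% of 31 PyMT cells (3.63 to 29.8), against a background upper limit of 3.85% from 94 cells. In Met-1 B cells the share was 10.8% of 249 cells, against an upper limit of 0.966% from 380 cells. The PyMT estimate was thus not below that of Met-1, but its interval was wide and its background limit higher. Why Cxcr5 did not pass there was not tested. Macrophage RNA was present in the B class, with 7 of 8 macrophage markers detected at a sum of 1717 CPM in Met-1 and 6 of 8 at 1527 CPM in PyMT, and Mrc1 at 0 in both. Its part in these levels was not tested, and Cx3cr1, high in macrophages, stood at 7.43 CPM in Met-1 B cells.

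Cxcr4 was the receptor found most widely. In Met-1 its order was neutrophils at 811 CPM, B cells at 626 (577 to 679), monocytes at 440 (369 to 522), macrophages at 407 (391 to 424), T cells at 90.7 (80 to 103), NK cells at 21.4 (14.9 to 29.8) and non-haematopoietic cells at 6.03 (4.23 to 8.35). Neutrophils and B cells overlapped, as did monocytes and macrophages. In PyMT the order was neutrophils at 683 CPM, B cells at 558 (395 to 766), macrophages at 181 (159 to 206), T cells at 102 (65.4 to 152) and non-haematopoietic cells at 19.4 (13.2 to 27.6), and again neutrophils and B cells overlapped. In Met-1 NK cells Cxcr4 did not pass the background rule, with UMIs in 4 of 160 thinned cells against 3 of 380 thinned non-haematopoietic cells. Before thinning the counts were 16 of 160 and 31 of 399 cells. The CPM intervals of these 2 classes did not overlap, but they cover counting error only, and 1 NK cell gave 8 of the 35 UMIs. Whether Cxcr4 in NK cells differed from background is therefore not settled.

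The tumours were then compared within each class that had 20 cells in both, over all genes with 20 UMIs in at least 1 library. Genes were counted as apart where CPM + 10 differed at least 2-fold. Of 16 receptor and class pairs tested, 3 were apart: Ccr2 and Cxcr4 in macrophages and Ccr7 in T cells. Among these, Ccr7 reached 20 UMIs through Met-1 alone. In neutrophils 0 of 3 receptors tested were apart, against 25.6% of all genes, and in B cells 0 of 3, against 27.8%. As no test can be made with 1 library per tumour, no count at an unadjusted p exists for these.

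Macrophages had 2 of 5 receptors apart, in opposite directions, against 6.69% of all genes (5.42% higher in Met-1 and 1.27% higher in PyMT). Ccr2 was at 23.0 CPM (133 UMIs) in Met-1 macrophages and 72.6 CPM (97 UMIs) in PyMT macrophages, 3.16-fold higher in PyMT (2.41 to 4.14). Monocyte markers moved with it, with 8 of 8 detected in both libraries at sums of 117 and 234 CPM in the Met-1 and PyMT cells. Among macrophages with no monocyte marker detected, Ccr2 was at 12.5 CPM (8.99 to 17) in 457 Met-1 cells and 45.8 CPM (31.7 to 63.9) in 102 PyMT cells. Among those with 1 or more, it was at 36.5 CPM (29.5 to 44.8) in 237 cells and 106 CPM (81.7 to 136) in 59 cells. PyMT was higher in both subsets with no overlap of intervals.

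Cxcr4 was at 407 CPM in Met-1 macrophages and 181 CPM in PyMT macrophages, 2.25-fold higher in Met-1 (1.97 to 2.58). It was higher in Met-1 in each of the 4 ranges of C1q RNA given above, the intervals overlapping in the range under 10. Cx3cr1 was 1.70-fold higher in Met-1 (1.52 to 1.90), an interval above 1 but short of the 2-fold rule. The ratio of PyMT to Met-1 was 1.18 (0.996 to 1.39) for Ccr1, and Cxcr3 was at a few CPM in both. The median log2 difference, Met-1 minus PyMT, was 0.17 over the 5 receptors and 0.14 over 9555 genes. Median depth of the 2 macrophage classes was near equal, at 7383 and 7124 UMIs. In the other classes compared, Met-1 cells were deeper. Their medians in Met-1 and PyMT were 7973 and 3841 UMIs in T cells, 2711 and 1608 in neutrophils, and 3485 and 2105 in B cells. The part of depth in those comparisons was not tested.

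T cells had 1 of 5 receptors apart, against 11.2% of all genes (8.11% higher in Met-1), with medians of -0.17 over the receptors and 0.08 over 7893 genes. Ccr7 was 3.28-fold higher in Met-1 (1.81 to 6.62), on 435 UMIs in 100 of 326 cells against 11 UMIs in 4 of 44 cells. Cxcr6 was 1.34-fold (0.986 to 1.79) and Ccr2 2.13-fold (0.921 to 4.36) higher in PyMT, and both intervals include 1. The Ccr2 value rests on 9 PyMT UMIs. Without the single cell of each library with most Cxcr6 UMIs, the Cxcr6 log2 difference, Met-1 minus PyMT, went from -0.40 to 0.05. Cxcr3 and Cxcr4 had ratios of Met-1 to PyMT of 0.853 (0.393 to 2.20) and 0.888 (0.584 to 1.41), wide enough to hold differences of 2-fold for Cxcr3. The T class was not made up alike, since cells in the recirculation state defined below were 126 of 326 in Met-1 and 12 of 44 in PyMT.

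For neutrophils the ratios of Met-1 to PyMT were 1.03 (0.781 to 1.34) for Ccr1, 1.47 (1.10 to 1.96) for Cxcr2 and 1.19 (0.892 to 1.57) for Cxcr4. For B cells they were 1.43 (1.01 to 2.06) for Ccr7, 1.12 (0.808 to 1.6) for Cxcr4 and 1.19 (0.588 to 2.82) for Cxcr5. The Cxcr2 and Ccr7 intervals lay above 1 and the rest included it. The median over the 3 receptors was 0.25 in neutrophils against -0.21 over 1963 genes, and 0.24 in B cells against 0.29 over 4852 genes.

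**Figure D3:**
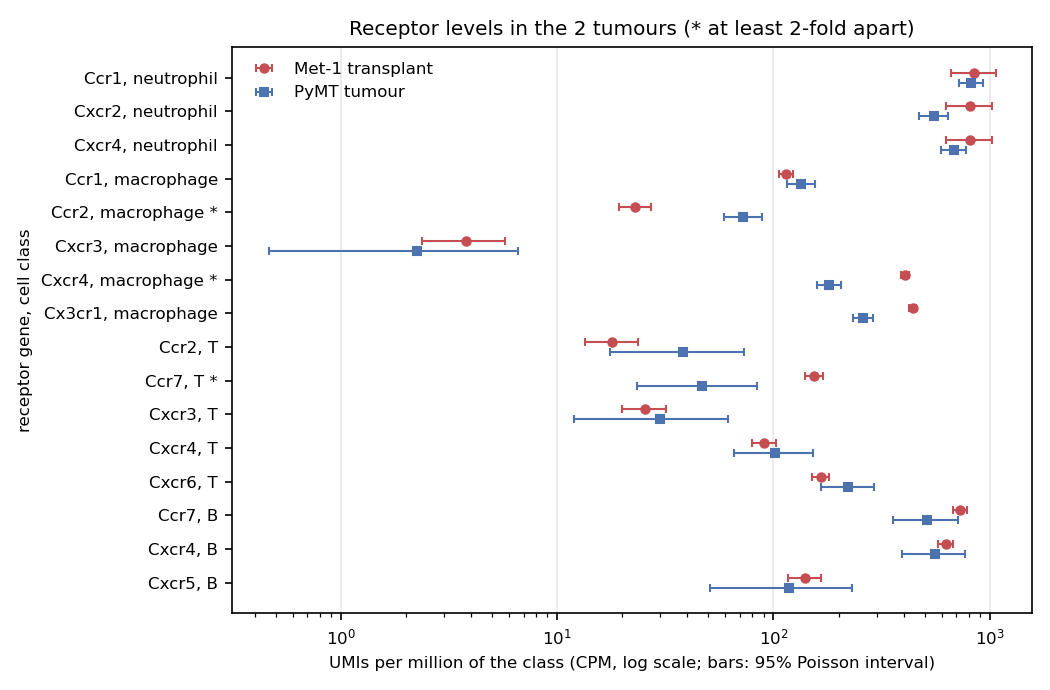
CPM of each receptor tested in each class, with 1 marker shape per tumour, on a log axis with 95% Poisson intervals. Stars mark the 3 pairs at least 2-fold apart, Ccr2 and Cxcr4 in macrophages and Ccr7 in T cells.

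Lymphocytes were next split by state. The 8 recirculation markers included S1pr1, S1pr4, S1pr5, Klf2, Klf3, Lef1 and Tcf7, egress receptors and transcription factors of cells that move between blood and lymph. The residency markers were Itgae, Itga1, Cd69, Rgs1, Rgs2, Zfp683, Ahr, Prdm1 and Xcl1, which include the integrins and regulators known from tissue-resident lymphocytes. A cell was in the state of which it had more markers detected. A state is a range of a count and not a cell type. Of Met-1 T cells, 126 were in the recirculation state, 192 in the residency state and 8 had equal counts, with medians of 5954, 9266 and 5691 UMIs.

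Receptors divided sharply between the T cell states. Of 5 receptors tested in Met-1 T cells 3 were apart, against 11.4% of 7055 genes: Ccr7 and Cxcr4 were higher in the recirculation state, against 2.23% of genes, and Cxcr6 was higher in the residency state, against 9.17%. Ccr7 was at 491 CPM in the recirculation state, with a UMI in 87 of 126 cells, and at 7.63 CPM in the residency state, with a UMI in 8 of 192 cells, a ratio of 64.3 (38.5 to 116). After thinning to 1000 UMIs, 40% and 0.526% of cells had a Ccr7 UMI. Cxcr4 was at 216 CPM (185 to 250) against 37.7 (29.6 to 47.3), a ratio of 5.73 (4.34 to 7.62).

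Cxcr6 was at 49.1 CPM (35.0 to 66.8) in the recirculation state and 215 CPM (195 to 236) in the residency state, 4.38-fold higher in the latter (3.16 to 6.22). It had a UMI in 24 of 126 and 120 of 192 cells, and in 4.80% and 14.7% after thinning. Cxcr3 did not follow either direction, at 31.9 CPM against 23.4 with a ratio of 1.36 (0.808 to 2.25). Ccr2 was at 14.7 CPM against 18.3. The 5 receptors had a median log2 difference, recirculation minus residency, of 0.33, and all genes tested had -0.26.

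The states also differed in what kind of T cell they held. NK markers summed to 115 CPM in the recirculation state, with 6 of 8 detected and Klra8 and Klra4 at 0, and to 977 CPM in the residency state, with 8 of 8 detected. The 6 gamma-delta T cell markers summed to 41.7 and 772 CPM, and Gzmb, a granule protease, was at 66.2 and 2976 CPM. Within alpha-beta cells, 81 in the recirculation and 111 in the residency state, the ratios were 54.1 (29.8 to 110) for Ccr7, 6.16 (4.30 to 8.98) for Cxcr4 and, toward residency, 3.66 (2.52 to 5.51) for Cxcr6. The differences were thus present among alpha-beta cells alone. In the 21 gamma-delta cells of the residency state Cxcr6 was at 294 CPM (227 to 374) and Ccr7 had no UMI.

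Ordered by the surplus of recirculation over residency markers, Ccr7 was at 1.6 CPM in the 111 cells with a surplus of -5 or less, 2.47 from -4 to -3, 38.2 from -2 to -1, 475 from 1 to 2 and 504 from 3 upward. Cxcr6 went from 225 and 262 CPM to 115, then 77.9 and 23.2. The 8 cells with no surplus, too few to carry a trend, are left out of these series. Cxcr4 was lowest at 17.7 CPM in the first range and highest at 249 CPM (202 to 304) from 1 to 2, with 186 (147 to 231) from 3 upward.

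**Figure D4:**
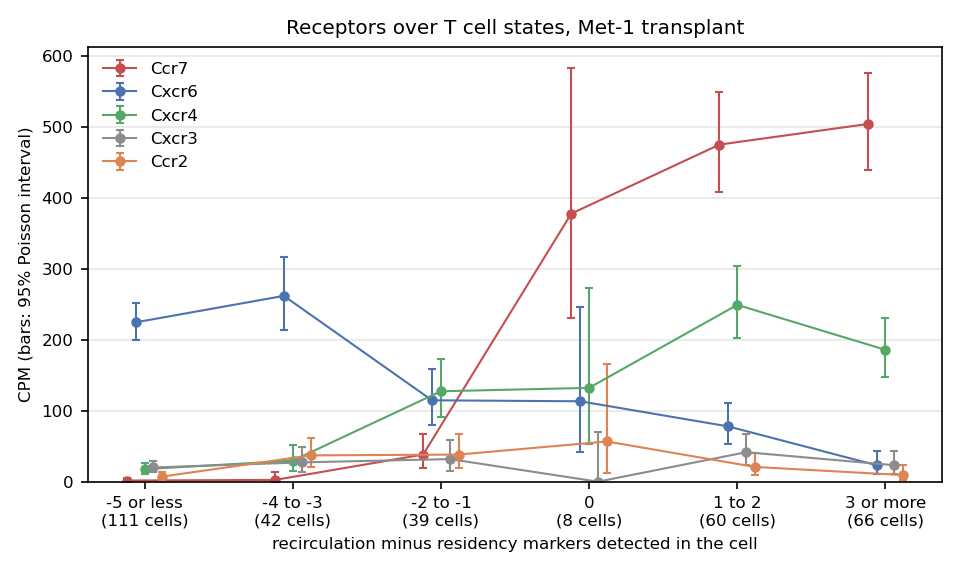
CPM of 5 receptors in Met-1 T cells over the surplus of recirculation over residency markers, with 95% Poisson intervals and the number of cells under each range. Ccr7 goes from 1.6 to 504 CPM while Cxcr6 goes from 225 to 23.2 CPM, and Cxcr3 and Ccr2 stay low throughout.

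The PyMT T cells were too few for a comparison, with 12 cells in the recirculation state and 30 in the residency state. Their Ccr7 was at 284 CPM (142 to 508; 11 UMIs) in the first and had no UMI in the second. Cxcr4 was at 310 CPM (160 to 541) and 61.7 (30.8 to 110), and Cxcr6 at 77.4 (16 to 226; 3 UMIs) and 275 (203 to 363). These values lay in the same order as those of Met-1.

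Of 160 Met-1 NK cells, 154 were in the residency state, 1 in the recirculation state and 5 had equal counts, so no comparison was made. In the 154 cells Cxcr6 was at 135 CPM (118 to 155) and Ccr2 at 125 CPM (108 to 143). By this count the NK class lay in the state in which T cells had their higher Cxcr6. In these NK cells the residency marker Xcl1 was at 3798 CPM and the recirculation marker Lef1 at 0.624 CPM. How far the choice of markers sets the state of NK cells was not tested.

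Met-1 B cells did not show the division seen in T cells. With 162 cells in the recirculation state and 37 in the residency state, 0 of 3 receptors were apart, against 6.93% of 3533 genes. Ccr7 was at 777 CPM (707 to 852) and 620 CPM (503 to 757), a ratio of 1.25 (1.004 to 1.58). Cxcr4 had a ratio of 1.16 (0.919 to 1.47) and Cxcr5 of 0.943 (0.581 to 1.59). These intervals lie short of 2-fold but cover counting error only. The sign changed under another setting for each of the 3 receptors, so their direction is not settled. B cells differed by few markers, with a median surplus of 1 and -1 in the 2 states against 3 and -5 in T cells, and the difference between T and B cells was not tested.

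The ligands of these receptors came from other classes in part. Of 21 ligand genes listed, 20 were in the matrices, and Ccl21a had no UMI. Cxcl2, a ligand of Cxcr2, was highest in the neutrophils themselves, at 7862 (Met-1) and 15334 CPM (PyMT), and in macrophages at 1495 and 3709 CPM. Cxcl16, the ligand of Cxcr6, was at 994 and 1135 CPM in macrophages, above every other class described. Cxcl12, the ligand of Cxcr4, was at 325 and 72.7 CPM in non-haematopoietic cells and at 5.51 CPM or less in leukocytes. Cx3cl1 was likewise in non-haematopoietic cells, at 44.1 and 58.3 CPM. Those cells were fibroblasts and mural cells for the most part in Met-1, with 33 luminal cells of 399, but 87 of 98 were luminal cells in PyMT, so their levels are not set against each other.

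Between the tumours, 4 of 12 ligands tested in macrophages were apart, against 6.69% of all genes, and each of the 12 had 20 UMIs in both libraries. Cxcl9, an interferon-induced ligand of Cxcr3, was higher in Met-1 (92.2 against 24.7 CPM), and Ccl7, Cxcl1 and Cxcl2 were higher in PyMT. In neutrophils 4 of 6 ligands tested were lower in Met-1, where 25.6% of all genes were apart in either direction. Ccl3, a ligand of Ccr1, was at 599 CPM (51 UMIs) in Met-1 and 2248 CPM (695 UMIs) in PyMT. Ccl4 was at 658 CPM (56 UMIs) and 1453 CPM (449 UMIs) there. Cxcl3 and Cxcl10 had 3 and 2 UMIs in Met-1 neutrophils against 141 and 30 in PyMT, so they reached the 20 UMIs needed through PyMT alone. Of 6 ligands tested in T cells, 1 was higher and 2 were lower in Met-1, against 11.2% of all genes apart. Ccl4 was higher in Met-1 (403 against 140 CPM) and Ccl5 higher in PyMT (8917 against 3828 CPM). Cxcl2 was also higher in PyMT T cells, on 20 UMIs in Met-1 and 13 in PyMT.

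In Met-1 B cells Ccl3, Ccl4 and Ccl5 had 46, 163 and 74 UMIs, against 0, 3 and 2 in the far smaller PyMT B class. They were thus counted as higher in Met-1, again through 1 library alone, and so was Cxcl2 as higher in PyMT, with 21 and 5 UMIs. Of 5 ligands tested in B cells, 3 were thus higher and 1 was lower in Met-1, against 27.8% of all genes apart. Between Met-1 T cell states Ccl4 was at 65.0 CPM in recirculation and 538 CPM in residency, and Ccl5 at 1161 and 5017 CPM. Ccl3 and Cxcl10 were higher in residency as well, on 329 and 290 UMIs there against 12 and 19, so that the 4 ligands tested lay in the direction of 9.17% of all genes. The Met-1 B cell states had the same 4 of 4 toward residency for Ccl3, Ccl4, Ccl5 and Cxcl16, against 1.08% of genes, on 22 to 100 UMIs in 37 residency cells. Ccl3 and Cxcl16 reached 20 UMIs through that state alone. Macrophage RNA was present in the B class, and its part in these states and ligands was not tested. In Met-1 the residency markers Rgs1 and Rgs2 were at 4874 and 858 CPM in macrophages, against 136 and 144 CPM in B cells. Ccl3, Ccl4 and Cxcl16 were at 876, 2710 and 994 CPM in Met-1 macrophages.

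Of the signalling genes listed, 0 of 12 tested in macrophages and 0 of 13 in T cells were apart between the tumours, against 6.69% and 11.2% of all genes. In neutrophils 2 of 7 were apart, against 25.6%: Gnai2, a G protein subunit used by these receptors, was at 1293 CPM in Met-1 and 501 in PyMT, and Rgs1, which damps G protein signals, was at 294 (25 UMIs) and 90.6 CPM (28 UMIs). In B cells 3 of 10 were apart, against 27.8%. Gnb1 was at 130 CPM in Met-1 and 323 in PyMT, and Rgs1 and Rgs19 were higher in Met-1 on 2 and 1 PyMT UMIs. Between T cell states Elmo1 was at 105 CPM in recirculation and 47.3 in residency, and Rgs18 had 1 and 25 UMIs, while Rgs1 and Rgs2 are markers of residency.

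Among 14 other chemokine receptors, Ccrl2 had 5392 UMIs and Ackr3 had 447. Ccrl2, an atypical receptor that does not signal like the others, was at 3067 and 2255 CPM in neutrophils and at 484 and 476 CPM in macrophages. Ackr3, a scavenger of Cxcl12, was at 60.3 and 42.6 CPM in non-haematopoietic cells. Of the 14, 0 of 3 tested in macrophages were apart between the tumours, against 6.69% of all genes. In neutrophils it was 0 of 1, against 25.6%. In T cells 1 of 3 was apart, against 11.2%: Ccrl2 was lower in Met-1, on 48 and 12 UMIs. In B cells 1 of 1 was apart and higher in Met-1, against 27.8%, on 68 UMIs in Met-1 and 1 in PyMT. Between Met-1 T cell states 2 of 2 were higher in residency, against 9.17%. Ccrl2 had 3 UMIs in the recirculation and 45 in the residency state. Each receptor called apart reached 20 UMIs through 1 side alone.

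Genes with the most similar pattern were ranked by Pearson's r of log2(CPM + 10) over 12 class and library groups of at least 20 cells. The groups of a library share its depth and preparation, so r is given as a description. Ccr1 was followed most closely by Cd300lf (0.99), Cxcr6 by Sult2b1 (0.996), Cx3cr1 by Trem2 (0.98) and Cxcr3 by Xlr4b (0.97). Cxcr2 was closest to Mmp9 (0.999) and Cxcr5 to Cd79a (0.995), both of which were class markers. Ccr7 was closest to Tmem108 (0.94), Cxcr4 to AB124611 (0.93) and Ccr2 to Aoah (0.90). Among the receptors themselves the closest pairs were Ccr7 with Cxcr5 (0.88), Cxcr3 with Cxcr6 (0.82) and Ccr1 with Cxcr2 (0.79).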

How the data were processed

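The data are UMI counts per gene and barcode of 2 single-cell libraries, 1 per tumour. The authors made these deposited counts with Cell Ranger 3.1.0 on mm10, per the submitters' processing notes, from libraries made with the 10X Genomics protocol, per the labels. Barcodes with at least 500 UMIs and 200 genes and at most 10% mitochondrial UMIs were kept. Doublets were called with the Scrublet method of scanpy 1.11.5 at 0.8% per 1000 barcodes, which removed 16 and 1 barcodes. Depth was 19908483 and 4295404 UMIs in kept cells.

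A cell joined the class with the largest share of its markers detected, with at least 3 markers, and was set aside as mixed where a second class also had 3 markers and over 0.5 of that share. NK and T cells were parted at 3 CD3 chain UMIs, and 29 of 486 Met-1 and 5 of 46 PyMT cells had 2 to 4. Levels are summed counts per 1000000 UMIs (CPM) with exact Poisson intervals, ratios have exact conditional binomial intervals, and shares have Clopper-Pearson intervals at 95%. Differences used log2(CPM + 10) over all genes with 20 UMIs. A floor of 3 counts gives the limit for a share of 0. No p-values were computed, as 1 library stands for each tumour, and the spread between animals is unknown. All 9 receptors are named, and other genes of the pathway by UMI total or as the known ligand of a receptor. The receptors, lists and rules were chosen with earlier results of these data known, and the finer C1q and marker surplus ranges, the alpha-beta subset and the split by monocyte markers were added after the levels had been seen. Python 3.11.15, numpy 2.4.6 and scipy 1.17.1 were used. The ratio and share computations were tested on simulated data. Some planned values for other genes are not reported here.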

Additional observations from a re-analysis of the deposited data

Results flagged for a closer look

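Barcodes left out of the comparisons also held receptor RNA above the non-haematopoietic cells, judged by the lower Poisson limit of the CPM against the upper limit in those cells. In the 316 Met-1 barcodes with over 10% mitochondrial UMIs (median 1250 UMIs), 8 of the 9 receptors were above, against 22.5% of all genes with 3 or more UMIs, with Cxcr4 at 414 CPM (365 to 468), Ccr7 at 262 (223 to 306) and Cxcr2 without a UMI. In the 27 such PyMT barcodes 3 were above, against 10.4% of genes, Ccr1 and Cxcr4 at 222 CPM each and Cxcr2 at 101 CPM.

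In the 95 Met-1 barcodes with both macrophage and B cell markers (median 11907 UMIs), 7 receptors were above, against 22.9% of genes. Among them were the macrophage receptor Cx3cr1 at 347 CPM (315 to 381) and the B cell receptors Ccr7 at 205 CPM (181 to 232) and Cxcr5 at 50.7 CPM (38.9 to 65.0). In the 11 such PyMT barcodes 5 were above, against 17.1% of genes, with Cx3cr1 at 182 CPM (123 to 259) and Ccr7 at 127 CPM (78.7 to 194).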

How the results depend on the processing

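Of 197 recomputed counts of receptors, 189 stayed within 1.5 times the main count and 8 moved, and of 309 recomputed differences of single receptors 17 fell outside the main value's 95% counting interval. The sign changed in 14 of the 309, over 10 of 24 differences, and in 0 of the 72 whose main value was at least 2-fold. Those 10 included Ccr1 and Cxcr4 in neutrophils and Cxcr3, Cxcr4 and Cxcr6 in T cells between the tumours, none of them 2-fold apart, and their direction is not settled. Without thinning, 5 receptors were above background in Met-1 macrophages, and with thinning to 500 UMIs 1 was in PyMT macrophages and 1 in PyMT T cells. With no filter on UMIs 2 receptors were apart between the tumours in neutrophils, 2 in B cells and 2 between Met-1 B cell states, counts that then include receptors with a few UMIs. A pseudocount of 50 CPM left 0 apart in macrophages, where the Ccr2 log2 difference became -0.75, and a pseudocount of 1 CPM gave 2 in T cells. The Ccr7 difference between T cell states went from 4.83 to 3.59 with states from thinned cells. A surplus of at least 2 markers left too few Met-1 B cells for a value.

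Counts over all genes moved more. In macrophages genes higher in Met-1 numbered 518, and 1595 and 95 with pseudocounts of 1 and 50 CPM, 847 by the mean over cells. In T cells they numbered 640, and 1472 and 58, and lower genes 242, 523 and 53. Centring on the median gene took the higher share of genes apart from 72.6% to 90.5% in T cells and from 81.9% to 94.3% in B cells. With no filter on UMIs the share of genes apart that were higher in Met-1 went from 24.9% to 53.4% in neutrophils and from 81.9% to 65.8% in B cells, so the direction over all genes in neutrophils depends on the filter. In Met-1 T cell states genes higher in residency numbered 647, and 1234 and 160 with the pseudocounts. No paired analysis was possible because each tumour has 1 library. Depth limits the PyMT lymphocytes and monocytes most, where 1 UMI in the B class is worth 14.7 CPM.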

Other observations

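Cells that held the RNA of 2 receptors were counted before thinning. In PyMT neutrophils Cxcr2 and Cxcr4 were found together in 50 of 176 cells, Cxcr2 alone in 39 and Cxcr4 alone in 47. In Met-1 T cells Ccr7 and Cxcr6 were found together in 19 of 326 cells, Ccr7 alone in 81 and Cxcr6 alone in 128. In Met-1 B cells Ccr7 and Cxcr5 were found together in 67 of 253 cells, with Cxcr5 alone in 21.

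Macrophages with cycling markers had lower Cxcr4 in both tumours. In Met-1 it was at 208 CPM (178 to 241) in 62 cycling cells and 441 CPM (423 to 460) in 632 others, and Cx3cr1 was at 305 (269 to 345) and 464 (445 to 484). In PyMT Cxcr4 was at 111 CPM (71.7 to 164) in 17 cycling cells and 196 CPM (170 to 223) in 144 others, while Cx3cr1 was at 239 (180 to 312) and 264 (235 to 296), with overlapping intervals. Cycling cells were deeper, with medians of 10820 UMIs against 7205 in Met-1, and the part of depth was not tested.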
